A study of Mus musculus with 33 samples.

Results

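The inflammatory CC chemokines and their receptors are described here by 9 mouse genes, the 6 ligands Ccl2, Ccl3, Ccl4, Ccl5, Ccl7 and Ccl8 and the 3 receptors Ccr1, Ccr2 and Ccr3. The members were taken by gene symbol from a table of 56414 gene rows, of which 36109 had reads, and each symbol matched a single row. The RNA came from C57Bl/6 mice that were left untreated or drank water with 0.5% nicotinamide (NAM, an amide form of vitamin B3) over 1, 3 or 14 days. The labels state that the NAM was replaced every 7 days, whereas the study's methods describe more frequent changes of the solutions. The 20 libraries labelled spleen hold 5 untreated, 5 NAM 1 d, 5 NAM 3 d and 5 NAM 14 d samples, and the 13 labelled lymph node hold 3 untreated, 2 NAM 1 d, 4 NAM 3 d and 4 NAM 14 d samples. Per the labels RNA was extracted from removed organs, and the study's methods also describe recovered tissues. Its results text speaks of cells of the spleen and lymph nodes. The mice carry no labelled transgene or tumor, and the labels give neither their age nor their sex. The study's methods name female mice and an age range in weeks for the work as a whole. Poly(A) RNA was sequenced in paired-end mode.

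CC chemokines are small secreted proteins, named for a pair of adjacent cysteines, that draw leukocytes along a gradient toward cells bearing the matching G protein-coupled receptors. Ccl2, Ccl7 and Ccl8 are the monocyte chemoattractant proteins, and Ccl2 and Ccl7 act through Ccr2, which lets classical monocytes leave the bone marrow, while mouse Ccl8 is known as a ligand of Ccr8. Ccl3 and Ccl4, the macrophage inflammatory proteins, and Ccl5, which cytotoxic lymphocytes store and secrete, guide monocytes and activated lymphocytes, with Ccr1 as a shared receptor of Ccl3 and Ccl5. Ccr3 is the eotaxin receptor of eosinophils and is also carried by basophils and mast cells. In lymphoid organs, macrophages, stromal cells and activated lymphocytes are known sources of these ligands.

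The 9 genes lie in a few clusters of the mouse genome. In the mm10 assembly, the monocyte chemoattractant genes Ccl2 (82035575 to 82037452), Ccl7 (82045710 to 82047521) and Ccl8 (82115183 to 82116801) are all on the plus strand of chromosome 11, within 81.2 kb. Ccl5 (83525781 to 83530519, minus strand), Ccl3 (83647844 to 83649378, minus strand) and Ccl4 (83662584 to 83664682, plus strand) follow on the same chromosome within 138.9 kb. The receptor genes Ccr1 (123962124 to 123968693, minus strand), Ccr3 (124021969 to 124031689, plus strand) and Ccr2 (124101949 to 124113557, plus strand) share 151.4 kb of chromosome 9. Only the span of Ccl2 holds another annotated gene, Gm17268 on the opposite strand, and it covers no exon of Ccl2.

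The tissue labels went against the 2 genes that check them. Glycam1, a mucin-like product of the high endothelial venules through which lymphocytes enter lymph nodes, had 108200 to 214200 normalised counts in the 20 libraries labelled spleen and 1.58 to 12.4 in the 13 labelled lymph node, and Spic, needed for the red pulp macrophages of the spleen, had 774 to 1295 and 6117 to 10490. Both markers disagreed with the label in 33 of 33 libraries, so the libraries are named below only as labelled. Libraries held 18325061 to 54830743 reads, with the NAM 3 d libraries labelled spleen the deepest of their label (43632016 to 54830743). A few libraries stood apart from their groups. The library labelled spleen, NAM 3 d, replicate 1, lay on the untreated side of the second principal component (13.6% of the variance), and the library labelled lymph node, NAM 1 d, replicate 1, was separated on the first component (18.1%), with summed counts of 10 pancreas markers of 126930 against 1093 in the other NAM 1 d library. The library labelled spleen, NAM 1 d, replicate 2, lay at 74.2 on the first component of its label (30.1% of the variance), against -14.6 to 28.1 in the other 4 of its group. Where leaving out one of these 3 libraries made or ended the call of a member against untreated mice or between labels, the value without it is given, and Ccl8 at 1 day under the spleen label was called without each of those labelled spleen.

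In untreated mice, the order of the members differed between the labels. In RPKM (reads divided by exon length and by library depth), which allows levels of different genes to be compared, Ccl5 was the most abundant member under both labels, at 596.8 ± 151.2 (SD, n = 5) in libraries labelled spleen and 195.6 ± 14.6 (SD, n = 3) in those labelled lymph node. Under the spleen label Ccl8 followed at 92.0 ± 17.2, then Ccl2 at 7.35 ± 4.03, Ccl7 at 5.65 ± 2.75, Ccl4 at 3.44 ± 0.27, Ccr2 at 2.56 ± 0.26, Ccr1 at 2.01 ± 0.39, Ccr3 at 0.975 ± 0.228 and Ccl3 at 0.311 ± 0.190. In that order, the mean ± SD ranges of Ccl2 and Ccl7, of Ccl7 and Ccl4, and of Ccr2 and Ccr1 overlapped. For the lymph node label the eotaxin receptor Ccr3 came next after Ccl5, at 46.2 ± 4.5. It was followed by Ccl4 at 6.92 ± 0.27, Ccr1 at 6.01 ± 1.17, Ccr2 at 3.33 ± 0.72, Ccl2 at 1.85 ± 0.28, Ccl8 at 1.36 ± 0.87, Ccl3 at 0.839 ± 0.145 and Ccl7 at 0.256 ± 0.053. Here the mean ± SD ranges of Ccl4 and Ccr1, of Ccl2 and Ccl8, and of Ccl8 and Ccl3 overlapped. The lengths are the joined exons of the GENCODE M21 annotation, while the study's methods describe counting on constitutive gene regions, so the levels per length are approximate.

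**Figure D1:**
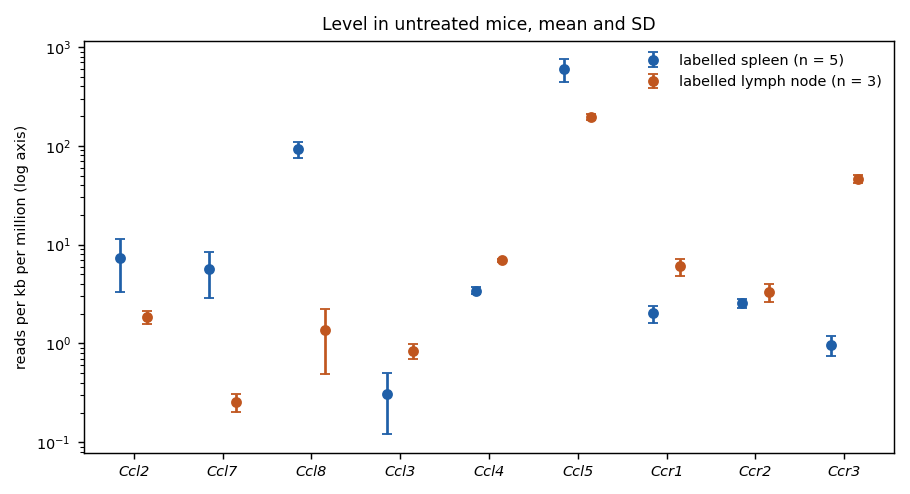
RPKM, that is reads per exon length and library depth (log axis), of the 9 members in untreated mice, for the 5 libraries labelled spleen and the 3 labelled lymph node; points are means and bars the SD. Ccl5 is highest under both labels, Ccl8 stands at 92.0 against 1.36 and Ccr3 at 0.975 against 46.2.

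On the normalised counts of untreated mice, the monocyte chemoattractant ligands were the higher under the spleen label, Ccl8 by 59.3-fold (1443 against 24.3), Ccl7 by 19.1-fold (137.6 against 7.19) and Ccl2 by 3.44-fold (254.9 against 74.1), with Ccl5 at 2.67-fold. All 3 receptors were the higher under the lymph node label, Ccr3 by 54.2-fold (5318 against 98.1), Ccr1 by 3.43-fold and Ccr2 by 1.49-fold, as were Ccl3 by 3.13-fold and Ccl4 by 2.31-fold. The libraries of the 2 labels were scaled separately, so these ratios are given with no test. The summed counts of 12 eosinophil and basophil markers were 5008 to 6507 in the untreated libraries labelled lymph node and 1039 to 1679 in those labelled spleen. Over all libraries labelled lymph node, Ear2 and Prg2 had the most counts of that list, at 3349 and 2497 on average. Epx, Siglecf and Il5ra averaged 169, 77.0 and 240.5 there, against 5105 for Ccr3. In untreated mice, 14 tissue macrophage markers summed to 165070 to 174590 under the lymph node label and 44813 to 59873 under the spleen label. The macrophage list was thus lower where Ccl8 was higher. The fibroblast and stroma list, at 53084 to 116400 under the spleen label and 13976 to 16467 under the lymph node label, was higher where Ccl8 was higher. So was the adipocyte list, at 38479 to 197400 and 3697 to 4174. Thy1 had the most counts of the fibroblast and stroma list under both labels, at 19960 and 8156 on average over all libraries. No marker of these 4 lists was at 0 in every library of a label. In RNA of a bulk sample, fewer cells of a type and less RNA per cell cannot be told apart. Other marker lists also differed between the labels, and the part of any list in the levels of the members was not tested.

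Whether NAM altered the members over time was asked within each label, by limma on log2(normalised count + 1) with the 4 groups of a label in one fit and p-values adjusted over all genes with a mean of at least 10 normalised counts. Of the 9 members, 8 passed that minimum under the spleen label, where Ccl3 had 1 to 29 reads a library, and 9 passed under the lymph node label. The 3 comparisons with untreated mice within a label share its untreated libraries.

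Ccl8 was the member that changed most clearly. In libraries labelled spleen it rose after 1 day of NAM, was high in 4 of 5 libraries at 3 days and had a 14 day mean close to the untreated one. The untreated libraries had 1695, 1504, 1664, 1414 and 936 normalised counts, with a mean of 1443 ± 306 (SD, n = 5). At 1 day the values were 2153, 2481, 3106, 3422 and 3212, with a mean of 2875 ± 535 (SD, n = 5). All 5 NAM 1 d libraries lay above all 5 untreated ones. The log2 fold change was 1.00 ± 0.26 (SE), with a 95% interval of 0.45 to 1.55 and an adjusted p of 0.0135, and Ccl8 was the only member called among 8 tested, in a comparison in which 16.6% of all tested genes were called.

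At 3 days the Ccl8 values were 1328, 3277, 3660, 3274 and 2201 normalised counts, with a mean of 2748 ± 962 (SD, n = 5). Replicate 1, at 1328, lay inside the untreated range and the other 4 lay above it. The log2 fold change was 0.87 ± 0.26 (SE) with an adjusted p of 0.0555, so that 0 of 8 members were called, against 5.55% of all tested genes. At an unadjusted p below 0.05 there were 2 members, Ccl8 and Ccr1, against 22% of all tested genes, edgeR called 1 (Ccl8) and DESeq2 called the same 2. Without replicate 1 the Ccl8 log2 fold change at 3 days was 1.11 with an adjusted p of 0.00324.

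At 14 days Ccl8 had 1539, 715, 1922, 1198 and 1256 normalised counts, a mean of 1326 ± 446 (SD, n = 5). These values overlapped the untreated ones, with 1 below and 1 above all of them, and lay below every NAM 1 d value. Against untreated mice the log2 fold change was -0.16 (95% interval -0.71 to 0.39, adjusted p = 1), and no member was called, where 0% of all tested genes were (510 genes at an unadjusted p below 0.05, 0 called by edgeR and 1 by DESeq2). Among the 8 members 1 (Ccr1) had an unadjusted p below 0.05, against 2.8% of all tested genes, and neither edgeR nor DESeq2 called any. Against NAM 1 d, Ccl8 fell by 1.17 on the log2 scale with an adjusted p of 0.00923, and 2 of 8 members were called, both lower, against 10.6% of all tested genes. Over the 4 groups together limma's F test called Ccl8 (adjusted p = 0.00711) and Ccr2 (adjusted p = 0.0246), 2 of 8 members, where 12.4% of all tested genes were called. With NAM 14 d replicate 1, 3 or 5 left out, that test called 1 member.

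**Figure D2:**
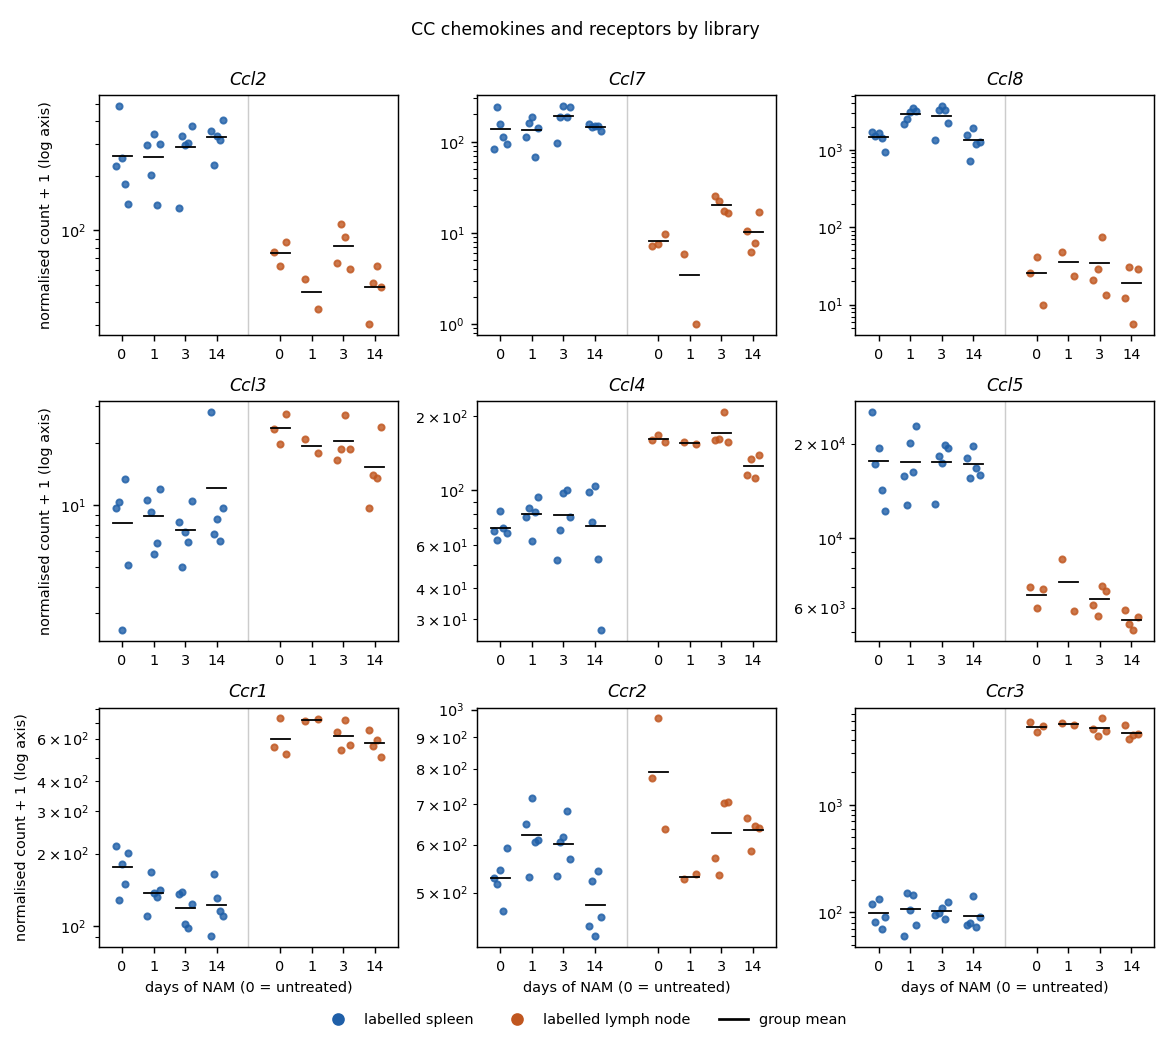
Normalised count + 1 (log axis, a separate range for each gene) of each member in every library against days of NAM, for the libraries labelled spleen on the left of each panel and lymph node on the right; points are libraries and bars the group means. Ccl8 under the spleen label is the panel with a rise at 1 day, from 1443 to 2875 on average, and a mean of 1326 at 14 days, and the 1328 of 1 NAM 3 d library is visible below the other 4.

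Ccl8 is the member whose upstream sequence is shown, since it alone passed the test against untreated mice. RefSeq entries for GRCm38.p6, the assembly also called mm10, were at hand for 5 of the 9 members (Ccl3, Ccl8, Ccr1, Ccr2 and Ccr3). The 248 bases before the first annotated base of Ccl8 (chr11:82114935-82115182, plus strand) are printed 5′ to 3′ with the TATA element in capitals.
Ccl8: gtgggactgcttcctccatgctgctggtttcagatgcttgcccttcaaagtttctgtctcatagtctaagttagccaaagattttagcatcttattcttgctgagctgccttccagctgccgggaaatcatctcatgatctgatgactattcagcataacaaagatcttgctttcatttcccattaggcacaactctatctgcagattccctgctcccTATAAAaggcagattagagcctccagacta
The letters TATAAA, searched on both strands, begin 30 bases before the gene in Ccl8, were found in no other of the 5 members and occur in 12.3% of 32851 upstream windows of that length. Neither TTCNNNGAA (6.97% of windows), TGANTCA, an AP-1 motif (6.73%), the interferon regulatory factor motif (2.96%) nor the NF-kB consensus (7.16%) matched the Ccl8 window. These matches describe letters and were not set against any binding data.

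Other measures of the libraries labelled spleen are set beside Ccl8. The share of reads on mitochondrial genes was 8.92% to 9.85% in untreated mice, 4.85% to 8.21% at 1 day and 8.44% to 11.9% at 14 days. At 3 days it was 5.95% to 8.29% in the 4 libraries with high Ccl8 and 14.0% in replicate 1, the library with low Ccl8. The marker counts that follow stand against the 16.6% of all tested genes called at 1 day and the 5.55% at 3 days. Among 14 tissue macrophage markers, 3 were called at 1 day, with the adhesion molecule Vcam1 higher (log2 fold change 0.64) and Cd68 (-0.53) and the phosphatidylserine receptor Timd4 (-0.78) lower, and the same 3 in the same directions at 3 days. Their summed level was 44813 to 59873 in untreated mice, 37586 to 50564 at 1 day and 35740 to 48415 at 3 days. Of 11 monocyte markers tested, Cx3cr1 (-0.46) and Nr4a1 (-0.40) were called at 1 day, both lower, while the median of the list was 0.08. The neutrophil list had 2 of 11 called at 1 day, with Ltf higher and Csf3r lower, a median of 1.35 and a sum that reached 12232 in 1 NAM 1 d library against at most 2609 in untreated ones. The adipocyte list had 1 of 10 called at 1 day, higher, with a median of 0.96 and sums of 119810 to 509330 against 38479 to 197400 in untreated mice, and the mammary epithelium list had 0 of 9 called with a median of 0.71. The fibroblast and stroma list had 0 of 10 called at 1 and 3 days, with medians of -0.29 and -0.38, and its sums were 53084 to 116400 in untreated mice, 45342 to 106700 at 1 day and 48789 to 52604 at 3 days, so that each NAM 3 d library lay below each untreated one. Thy1 was the largest gene of the fibroblast and stroma sums, at 19960 normalised counts on average. The part of these measures in the Ccl8 result was not tested.

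Ccl8 was a low-count gene under the lymph node label, with 4 to 80 reads a library. The untreated libraries had 24.5, 39.7 and 8.84 normalised counts, the NAM 1 d libraries 46.3 and 22.4, the NAM 3 d libraries 19.9, 27.4, 72.8 and 12.3, and the NAM 14 d libraries 11.1, 29.4, 4.57 and 27.9. The groups overlapped throughout. The log2 fold change at 1 day was 0.62 with a 95% interval of -0.99 to 2.22, which includes the change seen under the spleen label. It was 0.05 without untreated replicate 3, 0.11 without NAM 1 d replicate 1 and 1.12 without NAM 1 d replicate 2. The difference between the labels was 0.39 (95% interval -1.13 to 1.91, adjusted p = 0.845), and -0.12 to 0.96 when 1 of those libraries labelled lymph node was left out. At this depth neither a rise nor its absence could be shown there.

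Ccl2 and Ccl7, the members that share a cluster with Ccl8, passed the test at no time. Ccl2, the main attractant of Ccr2-bearing monocytes, had 225, 483, 249, 179 and 138 normalised counts in the untreated libraries labelled spleen and 295, 200.3, 337, 136 and 300.2 at 1 day. The ranges overlapped almost fully, and the log2 fold change was 0.06 with a 95% interval of -0.60 to 0.71. At 3 and 14 days its log2 fold changes were 0.22 (-0.43 to 0.88) and 0.46 (-0.19 to 1.12), with adjusted p-values of 0.740 and 1. Without NAM 3 d replicate 1 the 3 day change was 0.48 (adjusted p = 0.310). Ccl7, a ligand of Ccr1, Ccr2 and Ccr3, had means of 137.6 ± 64.9, 133.6 ± 45.8, 190.4 ± 60.2 and 146.2 ± 9.5 normalised counts (SD, n = 5 each) in the untreated, 1, 3 and 14 d groups. Its changes were -0.01, 0.51 and 0.20 on the log2 scale, with adjusted p-values of 0.987, 0.331 and 1. Without NAM 3 d replicate 1 the 3 day change was 0.73 (adjusted p = 0.0826). The intervals for Ccl2 and Ccl7 at 1 day, which reach 0.71 and 0.60, leave a rise of up to about that size undetected.

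Ccl2 and Ccl7 varied together across the libraries labelled spleen. Pearson's r of their log2 values was 0.76 over 20 libraries and 0.80 within groups, and each was among the 2 rows nearest the other of 18243. Ccl8, in the same cluster and on the same strand, had r of 0.18 with Ccl2 and 0.27 with Ccl7, and of 0.48 and 0.33 within groups. The genes nearest to Ccl8 were Zfp952 (r = 0.94, 0.85 within groups), Zfp330 (0.93, 0.82) and the mitochondrial ribosomal gene Mrpl47 (0.92, 0.80). All these points share library depth and the group effect, and they are given as a description with no test.

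**Figure D3:**
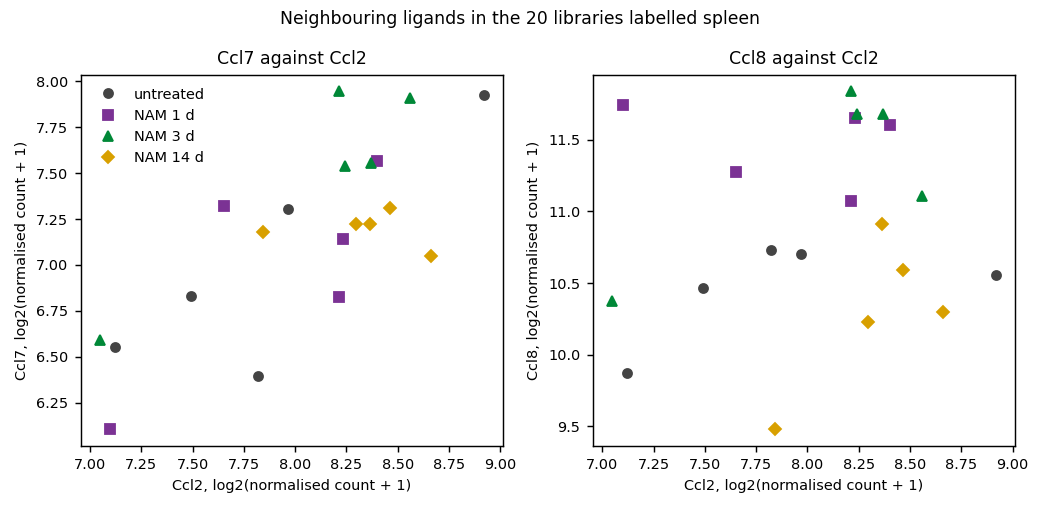
Log2(normalised count + 1) of Ccl7 (left) and Ccl8 (right) against that of Ccl2 in the 20 libraries labelled spleen, with a marker for each group. Ccl7 climbs with Ccl2 (r = 0.76), while in the Ccl8 panel (r = 0.18) the NAM 1 d libraries and 4 of 5 NAM 3 d libraries lie above the others at like levels of Ccl2.

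In libraries labelled lymph node, no ligand passed the test at any time, and the values of Ccl2 and Ccl7 were low. Ccl2 had 74.5, 62.9 and 85.1 normalised counts in untreated mice, 52.9 and 35.8 at 1 day, 65.2, 107.9, 91.0 and 60.0 at 3 days, and 29.3, 50.1, 62.9 and 47.9 at 14 days. Both NAM 1 d libraries lay below the untreated ones, a difference of -0.74 ± 0.32 (SE) on the log2 scale (adjusted p = 0.276). Ccl7 had 6.12, 6.62 and 8.84 normalised counts in untreated mice, 4.96 and 0 at 1 day, 24.3, 21.2, 16.4 and 15.4 at 3 days, and 9.51, 5.18, 6.86 and 15.97 at 14 days. All 4 NAM 3 d libraries lay above all 3 untreated ones, at 18 to 24 reads against 6 to 8, a difference of 1.30 ± 0.54 (SE) on the log2 scale (adjusted p = 0.277). The 1 day change of Ccl7, -1.73, rested on a library with 0 reads, and it was -3.02 (adjusted p = 0.0465) without replicate 1 and -0.44 (adjusted p = 0.798) without replicate 2. The difference between the labels in that change was 1.72 (adjusted p = 0.139), and 3.01 (adjusted p = 0.0241) without replicate 1, which leaves 1 library with 0 reads.

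The macrophage inflammatory proteins Ccl3 and Ccl4 passed no test. Ccl4 had means of 69.4 ± 7.3, 79.1 ± 11.6, 78.5 ± 20.2 and 70.3 ± 32.0 normalised counts (SD, n = 5 each) in the untreated, 1, 3 and 14 d libraries labelled spleen, and its log2 fold changes were 0.18, 0.14 and -0.13. In libraries labelled lymph node Ccl4 was 159, 167 and 156 in untreated mice and 114, 133, 111 and 138 at 14 days. The groups did not overlap, and the log2 fold change was -0.38 ± 0.13 (SE) with an adjusted p of 0.248. Ccl3 had 22.5, 18.7 and 26.5 normalised counts in those untreated libraries and 8.72, 13.0, 12.6 and 23.0 at 14 days, with a log2 fold change of -0.69 (95% interval -1.40 to 0.02, adjusted p = 0.439). Ccl3 and Ccl4 were like each other over the 13 libraries (r = 0.76, 0.69 within groups), and the chemokine scavenger Ackr4 and the interferon-induced Trafd1 were among the 3 genes nearest to each. Under the spleen label Ccl3 had 1.48 to 27.1 normalised counts and was not tested.

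Ccl5, the most abundant member, had changes close to 0 under the spleen label, with narrow intervals. Its values were 25145, 17154, 19391, 14236 and 12159 normalised counts in untreated mice, with a mean of 17617 ± 5031, and 15785, 12767, 20132, 16216 and 22686 at 1 day, with a mean of 17517 ± 3899 (SD, n = 5 each). The ranges were nearly the same. The log2 fold changes at 1, 3 and 14 days were 0.01, 0.02 and 0.00, and their 95% intervals all lay between -0.36 and 0.38. The genes nearest to Ccl5 over the 20 libraries were Zmynd15 (r = 0.92), Frmd8 (0.90) and Maz (0.90). Among libraries labelled lymph node Ccl5 had 6956, 5984 and 6863 in untreated mice and 5900, 5325, 5075 and 5609 at 14 days, which is -0.27 ± 0.11 (SE) on the log2 scale (adjusted p = 0.324). At 1 day its values were 8593 and 5838, and the log2 fold change of 0.10 turned to -0.17 if replicate 1 was left out and to 0.38 if replicate 2 was. Of 14 cytotoxic lymphocyte markers, none was called under the lymph node label at any time and 1 was called under the spleen label, at 1 day, where 16.6% of all tested genes were.

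**Figure D4:**
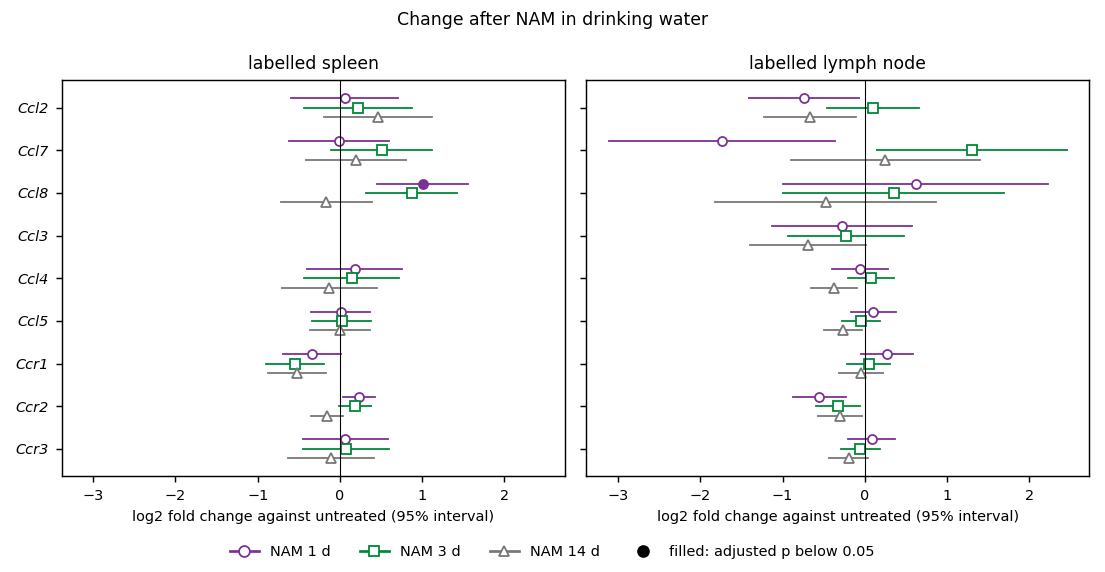
Log2 fold change against untreated mice, with 95% interval, of each member after 1, 3 and 14 days of NAM, for the libraries labelled spleen (left) and lymph node (right); filled symbols have an adjusted p below 0.05. Ccl8 at 1 day under the spleen label (1.00, 0.45 to 1.55) is the only filled symbol, and Ccl5 has intervals within 0.38 of 0 under that label.

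Among the receptors, Ccr2 had a 1 day change that differed between the labels, positive under the spleen label and negative under the lymph node label. In libraries labelled spleen it had 528, 515, 544, 465 and 590 normalised counts in untreated mice, 648, 530, 713, 604 and 609 at 1 day, 531, 604, 616, 679 and 568 at 3 days, and 439, 522, 423, 541 and 456 at 14 days. The means were 528 ± 46, 621 ± 67, 600 ± 56 and 476 ± 52 (SD, n = 5 each), and the ranges of the NAM groups overlapped the untreated one. The 1 day change was 0.23 ± 0.09 on the log2 scale with an adjusted p of 0.0983, or 0.29 with an adjusted p of 0.0471 without NAM 1 d replicate 2, and from 1 to 14 days Ccr2 fell by 0.38 ± 0.09 with an adjusted p of 0.0137.

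In libraries labelled lymph node Ccr2 had 770, 966 and 634 normalised counts in untreated mice and 525 and 536 at 1 day. Both treated libraries lay below the 3 untreated ones. The log2 fold change was -0.55 ± 0.15 (SE) with an adjusted p of 0.0898, and 0 of 9 members were called, against 1.21% of all tested genes, where 3 members and 15% of all tested genes had an unadjusted p below 0.05, edgeR called 0 and DESeq2 called 1 (Ccr2). Without untreated replicate 3 the change was -0.70 with an adjusted p of 0.0349. At 3 days Ccr2 had 570, 533, 700.0 and 703 and at 14 days 663, 585, 643 and 639, with log2 fold changes of -0.32 and -0.30 and adjusted p-values of 0.242 and 0.352.

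The difference between the labels in the 1 day change of Ccr2 was 0.78 ± 0.18 (SE) on the log2 scale, with a 95% interval of 0.42 to 1.15 and an adjusted p of 0.0221. It was the only member called of 8 tested, where 1.69% of the genes tested under both labels were called. This call rested on few libraries, since the adjusted p was 0.0508 and 0.0976 without untreated replicates 1 and 2, and 0.104 and 0.0896 without NAM 1 d replicates 1 and 2, all labelled lymph node. With the replicate number as a block it was 0.79 with an adjusted p of 0.0507. With the lymph node arm of 2 libraries reduced to 1, that library is assumed to vary like the other groups. For the 3 day change 0 of 8 members were called (0.735% of genes), with 2 at an unadjusted p below 0.05 (13.1% of genes), and for the 14 day change 0 of 8 (0.14% of genes), with 1 (4.85% of genes). Without the NAM 3 d replicate 1 labelled spleen, the difference at 3 days for Ccr2 was 0.55 with an adjusted p of 0.0433. edgeR and DESeq2 were not run on differences between labels.

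Monocyte markers are given beside Ccr2, and their part in its values was not tested. The summed counts of 12 markers in libraries labelled lymph node were 210280 to 213930 in untreated mice and 240410 to 262370 at 1 day. At 1 day 1 of 12 was called (Cd14, higher), where 1.21% of all tested genes were, and the median was 0.10. Most of each sum was Lyz2, at 160600 normalised counts on average. In libraries labelled spleen the sums were 109880 to 153850 in untreated mice and 102000 to 146760 at 1 day, with the 2 lower calls named above. No marker of the list was at 0 in every library of a label.

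Ccr1, a receptor of monocytes and neutrophils for Ccl3 and Ccl5, was lower on average after NAM under the spleen label at all 3 times. The untreated libraries had 215, 128, 181, 149 and 200.2 normalised counts, and the values were 110, 167, 136, 131 and 140 at 1 day, 135, 137, 101, 96.8 and 122 at 3 days, and 89.7, 163, 130, 115 and 109 at 14 days. Untreated replicate 2, at 128, was the only untreated library inside the range of the 3 day group. The log2 fold changes were -0.34 ± 0.17, -0.55 ± 0.17 and -0.52 ± 0.17 (SE), with adjusted p-values of 0.185, 0.0615 and 1. The 3 day value was called without that library (-0.65, adjusted p = 0.0474) and without NAM 3 d replicate 1 (-0.60, adjusted p = 0.0305). For libraries labelled lymph node the means were 598 ± 113, 715 ± 12, 614 ± 80 and 575 ± 62 normalised counts (SD, n = 3, 2, 4 and 4) and the log2 fold changes 0.27, 0.04 and -0.05. The difference between the labels was -0.61, -0.59 and -0.48 at 1, 3 and 14 days, with adjusted p-values of 0.225, 0.252 and 1.

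Ccr3, the eotaxin receptor, passed no test under either label. In libraries labelled lymph node the means were 5318 ± 569, 5618 ± 122, 5145 ± 838 and 4649 ± 599 normalised counts (SD, n = 3, 2, 4 and 4) in the untreated, 1, 3 and 14 d groups, with log2 fold changes of 0.08, -0.06 and -0.20 and 95% intervals within -0.44 and 0.37. Under the spleen label, at 58.7 to 150.7 normalised counts, the changes were 0.07, 0.08 and -0.11 with intervals from -0.63 to 0.60. The genes nearest to Ccr3 under the lymph node label were F2rl2 (r = 0.90), Cttn (0.90) and Rab27b (0.90) over 13 libraries, and each kept an r of at least 0.87 within groups.

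Taking the lymph node label as a whole, 0 of 9 members were called at 3 days (1.24% of all tested genes), at 14 days (0.791%), between 3 and 14 days (0.011%) and over the 4 groups (1.76%). At an unadjusted p below 0.05 there were 2, 4, 3 and 5 members in turn, against 14.8%, 11.8%, 5.84% and 14.9% of all tested genes. edgeR called none of them in these comparisons and DESeq2 called 1, over the 4 groups. The 14 day changes had a median of -0.30 over the 9 members, against 0.00 over all tested genes. At 3 days 9 of 9 tested erythroid markers were called lower in these libraries, and 3 of 9 at 14 days. The erythroid sums were 21831 to 32446 in untreated mice and 14779 to 21166 at 1 day. They were 2784 to 12494 at 3 days and 9729 to 14539 at 14 days. Of 14 tissue macrophage markers 3 were called higher at 1 day, 1 was called lower at 14 days and 5 were called over the 4 groups. Of all tested genes 1.21%, 0.791% and 1.76% were called in turn. The macrophage sums were 197160 to 209300 at 1 day against 165070 to 174590 in untreated mice. Of 12 neutrophil markers 2 were called lower at 14 days and 6 were called over the 4 groups. The part of these lists in the values of the members was not tested.

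Other CC ligands and receptors gave 1 call against untreated mice, and inducers gave more. Of the 11 other CC ligands listed, 10 were tested under the spleen label, and 1 was called at 1 day, where 16.6% of all tested genes were, and none at 3 or 14 days. This was Ccl17, a ligand that dendritic cells use to attract Ccr4-bearing T cells, which went from 152 ± 45 to 231 ± 25 normalised counts (SD, n = 5 each), higher by 0.64 on the log2 scale (adjusted p = 0.0262). Like Ccl8 it was lower at 14 than at 1 day (-0.66, adjusted p = 0.0303). The 1 day call held in 16 of 20 fits with 1 library left out (adjusted p 0.00852 to 0.0707), and the call between 1 and 14 days in 15 of 20 (adjusted p 0.0149 to 0.0778). None of the 9 other CC receptors and decoys was called under either label, and the nearest were Ccr6 under the spleen label (-0.23 at 1 day, adjusted p = 0.116) and the venular decoy Ackr1 under the lymph node label (-0.75 at 3 days, adjusted p = 0.121). Under the lymph node label 8 other ligands were tested and none was called, the nearest being the eosinophil attractant Ccl24 (-0.89 at 1 day, adjusted p = 0.0713).

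Of 17 inducers of CC ligands, which are cytokines and transcription factors of the NF-kB and interferon pathways, 15 were tested under the spleen label, and 4 were called at 1 day, 3 lower and 1 higher, where 16.6% of all tested genes were called. The higher one is not named here. The NF-kB subunit gene Rela went from 3437 ± 384 to 2537 ± 342 normalised counts (-0.44, adjusted p = 0.00665) and was also lower at 3 days (-0.36, adjusted p = 0.0443). Csf1, the macrophage growth factor, was lower by 0.33 (adjusted p = 0.0306), and Tnfaip3, an inhibitor of NF-kB signalling, changed by -0.26 (adjusted p = 0.0403). With 1 library left out in turn, the 1 day calls of Rela, Csf1 and Tnfaip3 held in 20, 15 and 13 of 20 fits and the 3 day call of Rela in 5, and Tnfaip3 was at -0.18 (adjusted p = 0.101) without NAM 1 d replicate 2. Under the lymph node label 1 of 17 was called at 1 day and at 3 days, where 1.21% and 1.24% of all tested genes were. The NF-kB inhibitor Nfkbia rose from 6566 ± 548 (SD, n = 3) to 8993 ± 585 (SD, n = 2) at 1 day (0.46, adjusted p = 0.0113) and was higher at 3 days (0.29, adjusted p = 0.0464). These calls held in 10 and 5 of 13 fits with 1 library left out, and the 1 day change was 0.39 (adjusted p = 0.0998) without NAM 1 d replicate 1, the library with pancreas markers.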

How the data were processed

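The authors deposited 1 table of normalised counts per gene, a signal in which each library's reads are divided by a DESeq2 size factor. Per the labels and methods, reads were aligned to mm10 with STAR 2.4.0, and genes followed the GenoSplice annotation. Strand use and the treatment of reads matching several genes are not given in the sources used here. Per-library columns left unmapped numbered 0. Values were whole multiples of 1 read for 99.996% to 100% of values per library (tolerance 0.001), which returned the read totals. Recomputed size factors were 0.9999 to 1.0001 times the deposited ones under the spleen label and 1.0289 to 1.0394 times under the lymph node label, each label on its own.

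Groups came from sample titles. limma 3.58.1 with a mean-variance trend (R 4.3.3) was fitted to log2(value + 1) for each label, with genes kept at a mean of at least 10, Benjamini-Hochberg adjustment and a threshold of 0.05. The difference between labels was a contrast over all 33 libraries. A pseudocount understates fold changes of low genes. edgeR 4.0.16 and DESeq2 1.42.0 on recovered reads were alternatives. The fits were tested on simulated data with known changes. The 56 pairs of replicates held 0 identical libraries. Replicates carry separate labels in a single experiment, so p-values measure the spread between these samples.

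The members and gene lists were chosen with earlier results of these data known. The text names all 9 members, from each list of other ligands, receptors and inducers the 3 genes of smallest adjusted p below 0.05 in each label (or the gene of smallest p), the 3 nearest genes by Pearson's r, and Glycam1 and Spic. The markers of other cells and the further check genes that are named were chosen after their values were seen. The values of 1 listed inducer are not reported here. Leaving out each library for the other pathway genes named was chosen after seeing the data.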

Additional observations from a re-analysis of the deposited data

Results flagged for a closer look

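Of 54 groups of 4 or 5 libraries tested for a single library far from the others by Dixon's ratio at 95%, 3 held such a library, and chance gives about 1 in 20. Ccl3 had 27.1 normalised counts (29 reads) in replicate 1 of NAM 14 d labelled spleen, against 5.74 to 8.69 in the other 4. Ccl4 had 205.7 in replicate 3 of NAM 3 d labelled lymph node, against 155 to 161. Ccr3 had 142.4 in replicate 3 of NAM 14 d labelled spleen, against 71.5 to 89.4.

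The 1 day change of Ccr2 differed between the labels by 0.78 on the log2 scale (limma, adjusted p = 0.0221), that is 0.23 in the spleen label against -0.55 in the lymph node label. Neither change was called within its label (adjusted p = 0.0983 and 0.0898), and the difference was not called when any 1 of 4 libraries labelled lymph node was left out (adjusted p 0.0508 to 0.104) or with the replicate block (adjusted p = 0.0507).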

How the results depend on the processing

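Ccl8 at 1 day under the spleen label was called by adjusted p in 31 of 31 alternatives (log2 fold change 0.86 to 1.10, adjusted p 0.000906 to 0.0413). Its fall from 1 to 14 days, like that of Ccr2, was called in 31 of 31 each (adjusted p 0.00028 to 0.0261, and 0.00283 to 0.0411). The rule of an unadjusted p with a 1.5-fold change is not among these alternatives. Ccl8 at 3 days was called in 7 of 31 (0.72 to 1.11, adjusted p 0.00063 to 0.165), Ccr1 at 3 days in 4 of 31 (adjusted p 0.0239 to 0.166) and the Ccr2 difference in 36 of 41 (0.63 to 0.93, adjusted p 0.00481 to 0.104). Of 2813 values of the 92 member changes, 98 changed sign, none of them of a called change. The cause of the changes below was not tested.

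The number of members called under the spleen label was 2 at 1 day with library weights, and at 3 days it was 1 with a mean of at least 50, with TMM scaling, with edgeR and with an unadjusted p and a 1.5-fold change, 2 with DESeq2 and 3 with library weights. Between 1 and 14 days the unadjusted rule gave 1, as the Ccr2 fall of 0.38 on the log2 scale was less than 1.5-fold. Under the lymph node label DESeq2 gave 1 at 1 day and 1 over the 4 groups, and the unadjusted rule gave 2 at 1 day and 1 at 3 days, at 14 days and between them. For the difference between labels at 3 days, library weights gave 1. Leaving out each library in turn gave, under the spleen label, 1 to 2 members at 1 day, 0 to 2 at 3 days and 1 to 3 over the 4 groups. Under the lymph node label it gave 0 to 1 at 1 day and over the 4 groups, and for the difference between labels 0 to 1 at 1 and 3 days. Ccr2 at 1 day was called without NAM 1 d replicate 2 labelled spleen (0.29, adjusted p = 0.0471), and Ccl8 at 3 days without NAM 14 d replicate 2 (adjusted p = 0.0400).

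Samples sharing a replicate number did not all deviate together, with correlations of -0.50 to 0.47 (13 of 30 over 0.1) under the spleen label and -0.11 to 0.08 (0 of 16) under the lymph node label. With the replicate block, the difference between labels at 1 day had 0 members called (Ccr2 0.79, adjusted p = 0.0507), and no other of the 92 member calls changed. Of all genes, the calls under the spleen label at 3 days numbered 1013, against 4722 with library weights, 1686 with DESeq2 and 572 with no filter, and those over the 4 groups 2260 against 4764 with library weights. In the lymph node label there were 221 at 1 day against 540 with DESeq2, 139 with no filter and 132 with the replicate block, 226 at 3 days against 493 with DESeq2 and 557 with library weights, 144 at 14 days against 381 and 278, 2 between 3 and 14 days against 55 with DESeq2 and 1 to 4 otherwise, and 321 over the 4 groups against 980 with DESeq2. Ccl7 at 1 day in that label was -3.34 with a pseudocount of 0.1 and -0.78 with 5, at 0 to 8 reads.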
